A study of Mus musculus with 4 samples.

Results

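The AP-1 transcription factor subunits and the immediate early genes most often measured with them were followed in ID8 cells, a mouse ovarian surface epithelial line that gives rise to peritoneal ovarian cancer. The set held 10 genes, taken by symbol from a table of 22063 genes: the Fos family (Fos, Fosb, Fosl1 and Fosl2), the Jun family (Jun, Junb and Jund), Egr1, Atf3 and Ier2. These genes were chosen by the difference between shUSP9X and shCtrl cells in these same libraries, so their values are given as a description, with no p-value. RNA was sequenced from 2 libraries of ID8 cells carrying a control shRNA (shCtrl, genotype labelled WT) and 2 libraries of ID8 cells carrying an shRNA against USP9X (shUSP9X, labelled as the knockdown). In the study, shRNAs against USP9X were delivered by lentivirus. Which shRNA was used for these libraries, and whether both knockdown libraries carried the same one, is not stated in the sources used here. Nor is it stated whether TGF-β or low oxygen was applied. The libraries held 17232006 and 15611363 counts for shCtrl and 19978889 and 17021261 counts for shUSP9X. Nothing in the labels says that the libraries of a group came from separate cultures, so the p-values given for other genes measure only the spread between these libraries, which may be technical.

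AP-1 is a family of dimers in which a Fos, Jun or ATF protein pairs with another through a leucine zipper and binds DNA through the adjoining basic region. Jun proteins can pair with themselves or with Fos proteins, whereas Fos proteins need a partner such as Jun. Fos, Fosb, Junb, Egr1, Atf3 and Ier2 are classical immediate early genes: serum, growth factors or stress switch them on within minutes through ERK and other kinases, SRF with its ETS partners, and CREB, and their mRNAs are short-lived, many of them through AU-rich elements in the 3′ untranslated region. Fosl1, which encodes FRA-1, is induced later and is itself an AP-1 target. It is associated with invasive behaviour in epithelial cancers.

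The targeted gene was low in both knockdown libraries. Usp9x, which encodes the deubiquitylase aimed at by the shRNA, was at 5169 and 4453 counts in the shCtrl libraries and at 390 and 346 counts in the shUSP9X libraries. Its level was 290 ± 11.6 CPM (counts scaled by library size and TMM factor; SD, n = 2) in shCtrl and 20.1 ± 0.570 CPM in shUSP9X, with a log2 fold change of −3.85 (SE 0.06; adjusted p = 4.7e-26, edgeR's quasi-likelihood test with Benjamini-Hochberg adjustment). With an offset for the GC content and length of transcripts it was −2.09.

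In the knockdown libraries Fos was 24.8-fold and Fosb 27.1-fold lower, Egr1 was 3.08-fold lower, and Fosl1 was 3.99-fold higher. The level of Fosl2 and the levels of the 3 Jun genes stayed within 1.13-fold of shCtrl. In bulk RNA, fewer cells expressing a gene and less RNA of it per cell cannot be told apart. At an adjusted p under 0.05 in edgeR's test, 6 of the 10 genes were called lower in shUSP9X and 2 were called higher, where 33.6% of all 11448 genes tested were called lower and 33.8% were called higher. Without overlap between the groups, 5 of the 10 lay lower and 2 lay higher, against 41% and 41.2% of all genes tested. The other 3, Fosl2, Jun and Jund, overlapped. All 10 passed the filter on low counts. As the genes were chosen by this contrast, nothing is read from these counts.

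**Figure D1:**
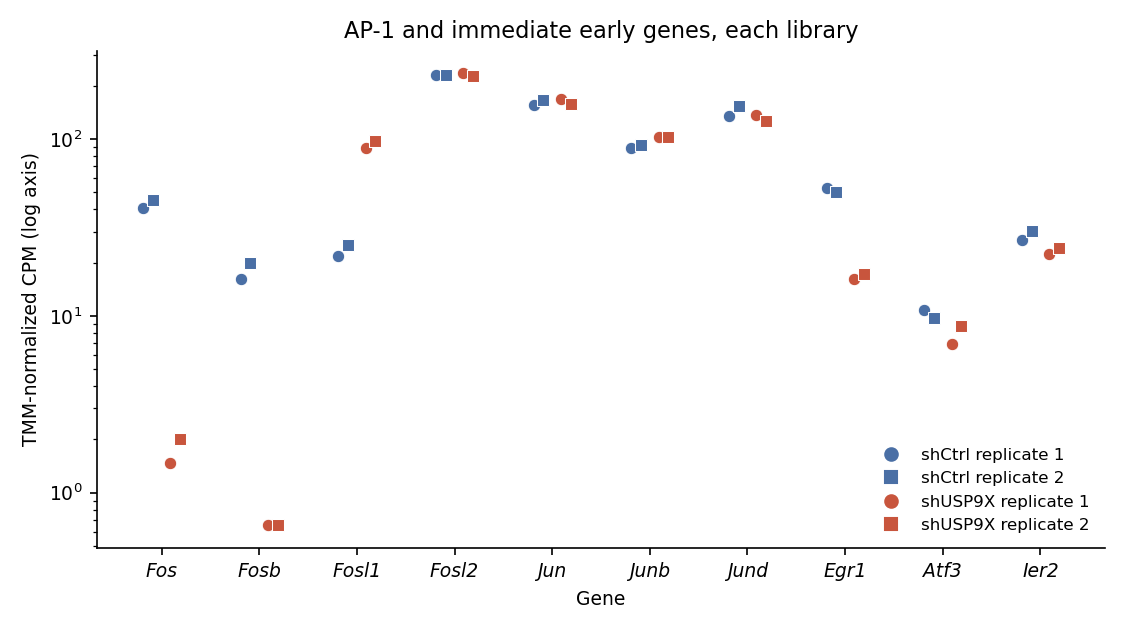
Level of each of the 10 genes in each library, as TMM-normalized CPM on a log axis, with circles for replicate 1 and squares for replicate 2. The shUSP9X libraries lie at 1.47 and 2.02 CPM for Fos and at 0.658 and 0.653 CPM for Fosb, far below shCtrl, and at 89.6 and 98.2 CPM for Fosl1, above shCtrl.

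Fos encodes c-Fos, the founding partner of Jun in AP-1. The gene (ENSMUSG00000021250) lies at chr12:85473890-85477273 on the plus strand of GRCm38 and has 4 exons. Fos had 710 and 711 counts in the shCtrl libraries and 29 and 34 counts in the shUSP9X libraries. Both knockdown libraries were far below both control libraries. The level went from 43.0 ± 2.84 CPM to 1.74 ± 0.390 CPM, which is 24.8-fold lower (log2 fold change −4.63, SE 0.15). Leaving out each library in turn moved this value between −4.86 and −4.40. Of the 11448 genes tested, 11 had a log2 fold change as low as that of Fos, Fos among them.

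Fosb encodes FosB, a close relative of c-Fos. It lies at chr7:19302696-19310051 on the minus strand (ENSMUSG00000003545, 4 exons). Its counts were 279 and 315 in shCtrl and 13 and 11 in shUSP9X. As for Fos, the groups were widely separated, and the counts in shUSP9X remained above the floor of 3 counts taken as the limit of detection. With so few counts, the close agreement of the 2 shUSP9X libraries is no measure of precision. Fosb stood at 18.0 ± 2.71 CPM in shCtrl and at 0.655 ± 0.0034 CPM in shUSP9X, 27.1-fold lower (log2 fold change −4.76, SE 0.23). This was the largest value among the 10 genes, but it differed from that of Fos by less than its SE, and Fos had the larger value without shUSP9X replicate 2 and on both FPKM scales. The size of it depended on the unit, since the log2 difference was −2.28 on log2(FPKM + 1) and −4.05 on log2(FPKM + 0.1), where FPKM is a count scaled by transcript length and library size and the added constant weighs on low values.

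The DNA just upstream of the RefSeq start of Fos and Fosb, which moved together, is shown beside that of Fosl2, whose levels overlapped between the groups. Each sequence covers the 140 bases before the transcription start in the RefSeq annotation of GRCm38.p6, written 5′ to 3′ on the strand of the gene. Capitals mark TGACG (the core of the CRE, the site bound by CREB and ATF proteins), GCGNGGGCG (the site of EGR proteins) and TATAAA (the letters of the element that positions RNA polymerase II). The windows are chr12:85473750-85473889 on the plus strand for Fos, chr7:19310046-19310185 on the minus strand for Fosb, and chr5:32136332-32136471 on the plus strand for Fosl2. The RefSeq starts used for Fosb and Fosl2 lie inside the genes as GENCODE places them, by a few bases for Fosb and much further for Fosl2, so those windows are not wholly upstream of the GENCODE genes.
Fos: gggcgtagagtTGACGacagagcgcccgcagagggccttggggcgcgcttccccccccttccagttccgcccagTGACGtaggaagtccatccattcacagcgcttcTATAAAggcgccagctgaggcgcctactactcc
Fosb: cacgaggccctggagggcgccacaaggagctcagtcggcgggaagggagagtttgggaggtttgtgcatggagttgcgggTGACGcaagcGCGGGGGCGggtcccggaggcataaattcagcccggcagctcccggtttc
Fosl2: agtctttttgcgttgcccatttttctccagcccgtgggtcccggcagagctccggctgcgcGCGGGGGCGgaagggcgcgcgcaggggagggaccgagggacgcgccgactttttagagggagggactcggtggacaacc

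Motifs were searched on both strands from 250 bases before to 50 bases after the start. This was done in 7 of the 10 genes and in all 32851 windows of the RefSeq promoter table. Egr1, on chromosome 18, was left out of the search, and Fosl1 and Ier2 could not be taken from that table. TGACG occurred at −129 to −125 and at −66 to −62 in Fos, where TATAAA lay at −33 to −28. In Fosb, TGACG occurred at −60 to −56 and GCGNGGGCG at −50 to −42. Junb held TGACG at −106 to −102 and TATAAA at 1 to 6, and Atf3 held TGACG on the reverse strand at −7 to −3. Fosl2 held GCGNGGGCG at −79 to −71. Thus TGACG was in the windows of Fos, Fosb, Junb and Atf3, against 20.8% of all windows, and GCGNGGGCG was in those of Fosb and Fosl2, against 5.55%. The TATAAA motif was in 13.6% of all windows. None of the 7 windows held the full palindrome TGACGTCA, which contains TGACG (1.79% of all windows), the AP-1 site TGACTCA (5.2%) or a CArG box, the site of SRF (1.63%), and none of the searched motifs was in the windows of Jun or Jund. These are matches of letters only. Sites more than 250 bases before the start, or near Egr1, were not searched, so a motif missing here may lie outside the windows.

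Fosl1 moved the other way. The gene (ENSMUSG00000024912, chr19:5447547-5455946, plus strand, 4 exons) had estimated counts of 378.73 and 399.79 in shCtrl and of 1771 and 1653.72 in shUSP9X. Both knockdown libraries exceeded both control libraries. Its level was 23.6 ± 2.43 CPM in shCtrl and 93.9 ± 6.06 CPM in shUSP9X, 3.99-fold higher (log2 fold change 1.99, SE 0.08), and 1.90 to 2.10 when each library was left out. The counts rest on how reads were divided with a neighbour. Of the 2033 exon bases of Fosl1, 1163 are also exon of Ccdc85b on the opposite strand, and the strand of the reads is not stated. Ccdc85b, named here because of this overlap, had 485.27 and 536.21 counts in shCtrl and 831 and 559.28 counts in shUSP9X. Summed over both genes, the level was 49.8 and 59.2 CPM in shCtrl and 131.6 and 131.3 CPM in shUSP9X, 2.41-fold higher in the mean, so the groups did not overlap for the pair either.

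Fosl2 encodes FRA-2, which is usually expressed more steadily than c-Fos. The gene (ENSMUSG00000029135, chr5:32135801-32157842, plus strand, 4 exons) had 3982 and 3644 counts in shCtrl and 4658 and 3836 counts in shUSP9X. At 230 and 230 CPM against 236 and 228 CPM, the libraries of the groups overlapped, and the log2 fold change was 0.01 (SE 0.04).

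The make-up of the Fos family therefore differed more than its total. On the FPKM scale, which allows levels to be set against each other between genes, the 4 Fos genes summed to 73.7 ± 3.82 in shCtrl and 85.9 ± 2.61 in shUSP9X. In shCtrl, Fosl2 made up 48.3% ± 2.16 of that sum, Fos 27.9% ± 0.530, Fosl1 17.3% ± 0.969 and Fosb 6.54% ± 0.658 (SD, n = 2). In shUSP9X, Fosl1 made up 58.0% ± 2.0 and Fosl2 40.9% ± 2.22, while Fos made up 0.950% ± 0.184 and Fosb 0.230% ± 0.0358. Fosl1 thus took the place of Fosl2 as the most abundant Fos family mRNA, as far as the division of reads with Ccdc85b allows.

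**Figure D2:**
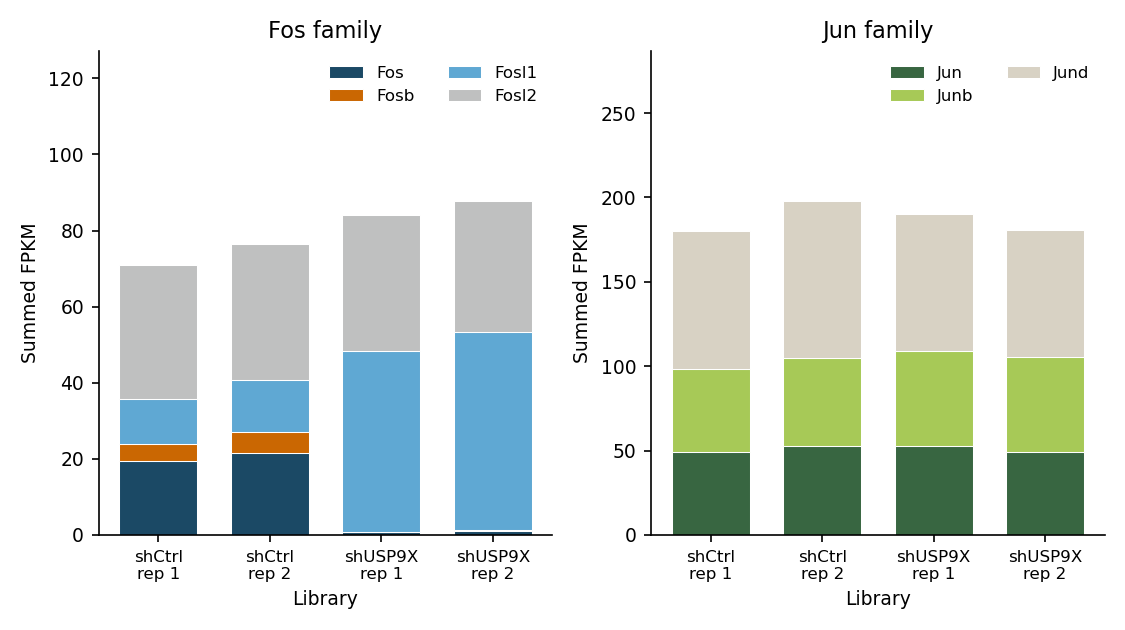
FPKM of each Fos family gene (left) and Jun family gene (right) stacked for each library, so that the height of a bar is the family sum. Fos and Fosb fill 27.9% and 6.54% of the Fos family in shCtrl on average and almost none of it in shUSP9X, where Fosl1 fills 58.0%, and the Jun family keeps its proportions within a few percentage points.

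The Jun genes differed little between the groups. Jun, which encodes c-Jun (ENSMUSG00000052684, chr4:95049034-95052222, minus strand, 1 exon), had 2694 and 2617 counts in shCtrl and 3348 and 2674 counts in shUSP9X. Scaled to 155 and 166 CPM against 169 and 159 CPM, the groups overlapped (log2 fold change 0.03, SE 0.05). The sign of this small difference was not stable, as an offset for GC content and transcript length gave −0.13. Of the 3189 exon bases of Jun, 232 are also exon of the antisense gene Junos, whose values were not analysed here.

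Junb, an immediate early gene whose protein often restrains c-Jun (ENSMUSG00000052837, chr8:84974484-84978718, minus strand, 1 exon), had 1535 and 1472 counts in shCtrl and 2030 and 1721 counts in shUSP9X. The 2 knockdown libraries, at 102.7 and 102.1 CPM, lay above the 2 control libraries, at 88.5 and 93.1 CPM. The log2 fold change of 0.17 (SE 0.05) shrank to 0.01 with the GC and length offset. Junb shares 173 of its 2301 exon bases with Prdx2 on the opposite strand, a gene with 3836 and 3582 counts in the control libraries and 4034 and 3517 in the knockdown libraries.

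Jund, the Jun gene with the most constitutive expression (ENSMUSG00000071076, chr8:70698949-70700616, plus strand, 1 exon), had 2357 and 2425 counts in shCtrl and 2720 and 2138 counts in shUSP9X. With 136 and 153 CPM in shCtrl and 138 and 127 CPM in shUSP9X, one library of each group fell inside the range of the other. The log2 fold change was −0.13 (SE 0.05), and rested on single libraries: it was −0.20 without shCtrl replicate 1, −0.03 without shCtrl replicate 2 and −0.06 without shUSP9X replicate 2. Of the 1668 exon bases of Jund, 877 are also exon of the antisense gene Gm11175, not analysed here.

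As a family the Jun genes summed to 189 ± 12.4 FPKM in shCtrl and 185 ± 6.99 FPKM in shUSP9X. Jund made up 46.3% ± 1.12 of the sum in shCtrl and 42.3% ± 0.820 in shUSP9X, Junb 26.8% ± 0.686 and 30.2% ± 1.03, and Jun 26.9% ± 0.438 and 27.4% ± 0.219. Summed Fos family FPKM divided by summed Jun family FPKM was 0.394 and 0.386 in the shCtrl libraries and 0.442 and 0.486 in the shUSP9X libraries. Jun family mRNA thus exceeded Fos family mRNA in every library.

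Egr1 encodes a zinc finger transcription factor that responds to the same ERK and SRF inputs as Fos. The gene (ENSMUSG00000038418, chr18:34859823-34864984, plus strand, 2 exons) had 918 and 794 counts in shCtrl and 321 and 291 counts in shUSP9X. Neither knockdown library came near the control libraries. Its level went from 51.6 ± 1.93 CPM to 16.8 ± 0.730 CPM, 3.08-fold lower (log2 fold change −1.62, SE 0.09). Of the genes tested, 566 had a log2 fold change as low as this one, against the 11 for Fos.

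Atf3 encodes a stress-induced ATF protein that pairs with Jun proteins. It lies at chr1:191170296-191218039 on the minus strand (ENSMUSG00000026628, 4 exons). The counts were 186 and 154 in shCtrl and 137 and 148 in shUSP9X, so this was a gene of low abundance in all libraries. At 10.7 and 9.74 CPM against 6.93 and 8.78 CPM the groups did not overlap, but they were close. The log2 fold change was −0.39 (SE 0.16) but was −0.22 without shUSP9X replicate 1, the lower of the 2 knockdown libraries, and −0.55 without shUSP9X replicate 2.

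Ier2, a single-exon immediate early gene that encodes a small nuclear protein (ENSMUSG00000053560, chr8:84661331-84662852, minus strand), had 467 and 477 counts in shCtrl and 440 and 408 counts in shUSP9X. The knockdown libraries, at 22.3 and 24.2 CPM, lay below the control libraries, at 26.9 and 30.2 CPM. The difference was small next to that of Fos, with a log2 fold change of −0.30 (SE 0.10).

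In order of FPKM, shCtrl cells expressed Jund at 87.6 ± 7.87, Jun at 50.8 ± 2.50, Junb at 50.7 ± 2.04, Fosl2 at 35.5 ± 0.252, Fos at 20.6 ± 1.46, Ier2 at 18.9 ± 1.6, Egr1 at 15.3 ± 0.456, Fosl1 at 12.8 ± 1.38, Atf3 at 5.21 ± 0.321 and Fosb at 4.84 ± 0.735 (SD, n = 2). Of these neighbours Jun and Junb, Fos and Ier2, and Atf3 and Fosb overlapped between libraries. In shUSP9X cells the order was Jund at 78.5 ± 4.47, Junb at 56.0 ± 0.195, Jun at 50.9 ± 2.32, Fosl1 at 49.8 ± 3.23, Fosl2 at 35.1 ± 0.842, Ier2 at 15.1 ± 0.903, Egr1 at 5.08 ± 0.128, Atf3 at 3.92 ± 0.655, Fos at 0.819 ± 0.183 and Fosb at 0.198 ± 0.0368. There only Jun and Fosl1 overlapped. Fos went from the fifth place to the ninth and Fosl1 from the eighth to the fourth.

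**Figure D3:**
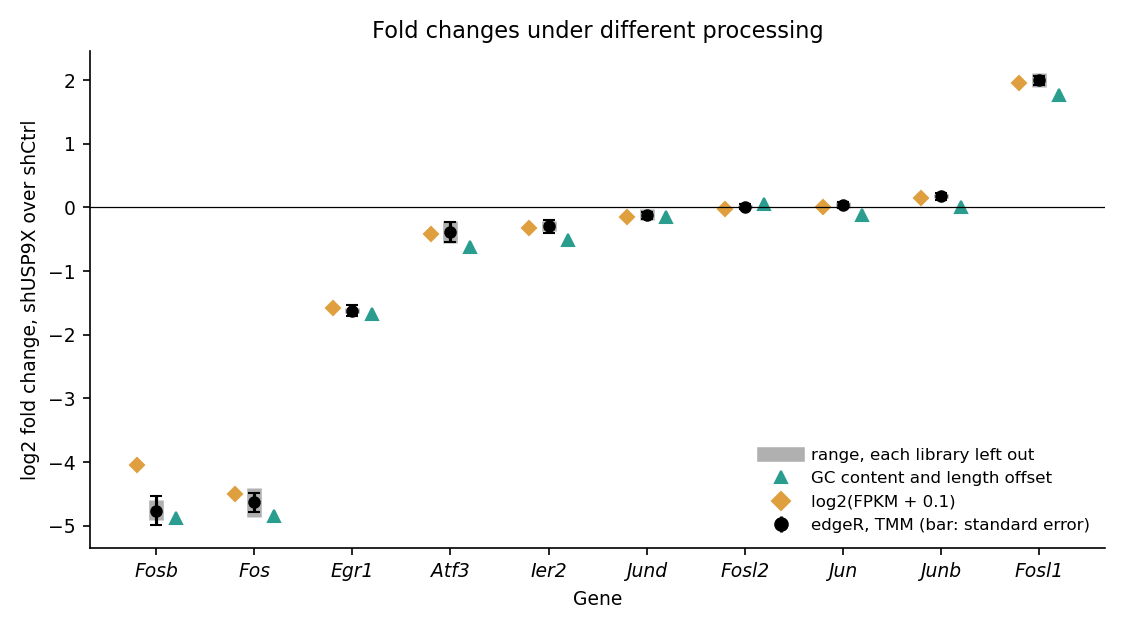
The log2 fold change (shUSP9X over shCtrl) of each gene from edgeR with its standard error, its range when each library was left out (grey), its value with an offset for GC content and transcript length (triangles) and its value on log2(FPKM + 0.1) (diamonds). Fosb, Fos and Egr1 lie below 0 and Fosl1 lies above 0 under each of them, whereas the values of Jun and Fosl2 change sign.

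Fold changes in these libraries followed base composition. Over the genes tested, Spearman's rho of the log2 fold change was 0.447 with the GC content of the transcript and −0.331 with its length, a description across genes, which are not independent replicates. Each of the 10 genes was richer in GC than the median gene tested (50.1%), from 51.9% for Fos to 67.1% for Jund. With the tested genes ranked by GC content and cut into bins of 1143 or so, the bins that held the 10 genes had median log2 fold changes between 0.13 and 0.25. With the GC and length offset the log2 fold change was −4.84 for Fos, −4.87 for Fosb, −1.67 for Egr1 and 1.76 for Fosl1. The smaller differences of Atf3 and Ier2 became larger, at −0.61 and −0.52.

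**Figure D4:**
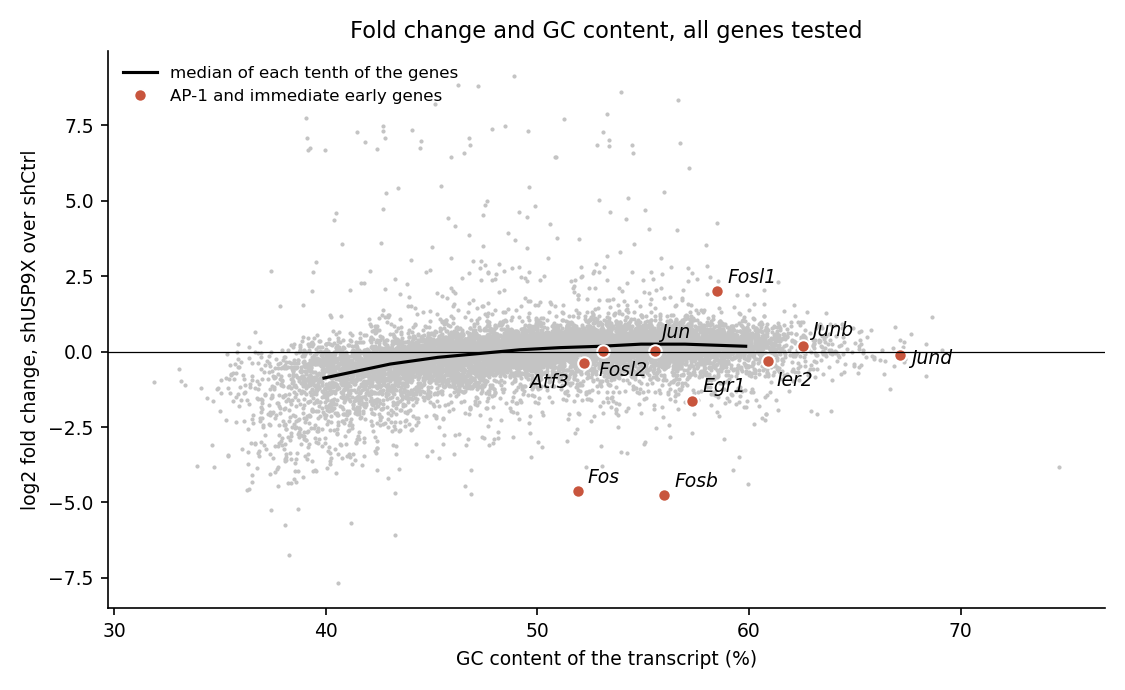
The log2 fold change (shUSP9X over shCtrl) against the GC content of the longest coding transcript for every gene tested (grey), with the median of each of the equal bins of genes (black line) and the 10 genes (red). The black line lies between 0.13 and 0.25 in the bins that hold the 10 genes, and Fos, Fosb and Egr1 lie far below it and Fosl1 above it.

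Gene structure and untranslated regions were compared as well. Jun, Junb, Jund and Ier2 have 1 exon, as do 2.38% of the genes tested, whose median is 9 exons. The AU-rich pentamer ATTTA occurred in the 3′ untranslated region of 9 of the 10 (all but Ier2), against 70.9% of 11332 genes tested with such a region. The longer TATTTAT, which contains it, occurred in 7 of the 10 and in 31.1% of those genes. These shares were not matched for the length of the region, so no enrichment is read from them. It ran from 485 bases in Junb to 4653 in Fosl2, beside a median of 1187 over those genes. Fosl2 held 8 copies of ATTTA, Fos and Jun 4 each, Atf3 3, Junb and Egr1 2, and Fosb, Fosl1 and Jund 1.

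Of all genes tested, those whose pattern over the 4 libraries was nearest to Fosb, by Euclidean distance between log2 CPM profiles set relative to the shCtrl mean, were Mki67 (distance 0.332), Fos (0.334) and Zfp808 (0.517). Mki67, which encodes the proliferation marker Ki-67, had 15778 and 13287 counts in shCtrl and 789 and 676 counts in shUSP9X. It was far more abundant than Fosb at a similar log2 fold change of −4.45. For the zinc finger gene Zfp808 the log2 fold change was −4.61.

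The genes that act around AP-1 were read from 7 lists, with 179 genes tested, of which 74 were lower and 67 higher in shUSP9X at an adjusted p under 0.05 (edgeR's quasi-likelihood test, Benjamini-Hochberg adjustment over all genes). Over all 11448 genes tested, 33.6% were called lower and 33.8% higher. The median log2 fold change of the list genes was −0.02, beside −0.00051 over all genes tested. With the GC and length offset the split was 42 lower and 89 higher, and over all genes it was 2923 lower and 4416 higher in place of 3843 and 3864. The direction of a list is therefore given under both. As the lists were chosen with earlier results of these data known, a split can come from that choice, and nothing is read from it.

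On the list of genes that AP-1 is known to activate, most stood higher, which describes the chosen list only. Of 29 tested, 20 rose and 6 fell, where 33.8% of all genes tested rose and 33.6% fell. The median log2 fold change was 0.44. With the offset 20 rose and 7 fell (median 0.32), where 4416 of all genes fitted rose and 2923 fell. Nqo1, a quinone reductase also driven by NRF2, rose by 2.61 on the log2 scale (SE 0.06). The collagenase gene Mmp13 rose by 2.29 (SE 0.14), the stromelysin gene Mmp10 by 1.51 (SE 0.19) and the ferritin gene Fth1 by 1.20 (SE 0.03). Fibronectin (Fn1, −1.55), osteopontin (Spp1, −0.81), tissue plasminogen activator (Plat, −0.79) and Vegfa (−0.70) fell. The adjusted p of these 8 genes in edgeR's test was at most 1.25e-07.

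Of 41 other immediate early genes tested, 16 rose and 15 fell, where 33.8% of all genes tested rose and 33.6% fell. This split was near that of all genes, so nothing about the list is read from it. The numbers were the same with the offset, and the median log2 fold change was 0.0037. Myc had 1898 and 1797 counts in shCtrl and 4345 and 3674 counts in shUSP9X, a rise of 0.97 (SE 0.05; adjusted p = 2.8e-16 in edgeR's test). Gadd45b, a growth arrest and stress gene, rose by 1.06 and the EGF receptor ligand gene Hbegf by 0.94. Dusp1, which encodes a phosphatase of MAP kinases and is induced together with Fos, had 523 and 538 counts in shCtrl then 320 and 251 with shUSP9X, and fell by 1.04 (SE 0.10; adjusted p = 1.5e-09 in edgeR's test). The antiproliferative gene Btg2 fell by 0.89. Tiparp, a mono-ADP-ribosyltransferase gene, fell by 0.85, but its value with the offset was 0.041. Klf2 fell by 0.91 on 56 and 37 counts against 21 and 33 counts, with an adjusted p of 0.024 in edgeR's test. That call was lost with DESeq2, on both FPKM scales, without shCtrl replicate 1 (log2 fold change −0.64) and without shUSP9X replicate 1 (−0.51).

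On the list of other bZIP genes, whose proteins can enter AP-1-like dimers, most were lower without the offset. Of 23 tested, 16 fell and 5 rose (median −0.35), where 33.6% of all genes tested fell and 33.8% rose. With the offset 11 fell and 8 rose (median −0.20), where 2923 of all genes fitted fell and 4416 rose. Maf (log2 fold change −1.21), the ER stress gene Ddit3 (−1.04) and Atf5 (−0.79) fell, and did so with the offset too. Creb1, which encodes the CREB protein that binds TGACG sites, fell by 1.27 (SE 0.06) from 1566 and 1364 counts to 747 and 596 counts, but stood at 0.22 with the offset. Among the rises were the small Maf genes Maff (0.54) and Mafk (0.44), Cebpb (0.39) and Nfe2l2 (0.29), which encodes NRF2.

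Upstream of AP-1, the list of transcription factors had 7 lower and 4 higher of 17 tested (median −0.08). With the offset 0 were lower and 9 higher (median 0.18). Of all genes tested 33.6% were lower and 33.8% higher, and with the offset 2923 genes were lower and 4416 higher. Srf, the partner of the ETS factors at Fos and Egr1, had 490 and 527 counts in shCtrl and 1127 and 973 counts in shUSP9X, a rise of 0.90 (SE 0.08; adjusted p = 1.4e-10 in edgeR's test), and 0.86 with the offset. Its mRNA level thus moved opposite to those of Fos and Egr1, while the activity of its protein was not tested. Of its ETS partners Elk3 rose by 0.43, while Elk1 (0.15, adjusted p = 0.165) and Elk4 (−0.11, adjusted p = 0.247) did not pass edgeR's test. Mef2d rose by 0.42. Mef2a fell by 0.83 but stood at −0.0044 with the offset.

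Among the kinases, 13 fell and 14 rose of 37 tested (median 0.03), near the 33.6% and 33.8% of all genes tested. With the offset 5 fell and 17 rose (median 0.11), where 2923 of all genes fitted fell and 4416 rose. Nothing about the list is read from these counts. The ERK gene Mapk3 (0.09, adjusted p = 0.079) did not pass edgeR's test, but it was called higher with upper quartile scaling (0.13), without the filter on low counts (0.11) and without shCtrl replicate 2 (0.16), and called lower with the offset (−0.16, adjusted p = 0.0016). The JNK genes Mapk8 (−0.49) and Mapk9 (−0.29) fell, but the offset turned Mapk8 to 0.64 and brought Mapk9 to 0.00080. Likewise Braf, which fell by 1.40, and Rps6ka3, an ERK-activated kinase gene that fell by 1.25, stood at 0.0066 and −0.034 with the offset. Mapkapk2 rose by 0.82, Rps6ka4 by 0.80, Map2k3 by 0.64 and Hras by 0.55.

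The factors that bind and degrade AU-rich mRNA had 12 lower and 7 higher of 26 tested (median −0.09). With the offset 4 were lower and 15 higher (median 0.34). Over all genes tested the shares were 33.6% lower and 33.8% higher, and with the offset 2923 genes were lower and 4416 higher. Zfp36, which encodes tristetraprolin and is itself an immediate early gene, overlapped between the groups at 269 and 276 counts against 324 and 235 counts (log2 fold change −0.11, adjusted p = 0.421 in edgeR's test), but with the offset it was called lower, at −0.29 (adjusted p = 0.033). The stabilizing factor gene Elavl1 rose by 0.49, and by 0.91 with the offset. The ubiquitin ligase genes that act on Fos and Jun proteins had 7 lower and 2 higher of 10 tested (median −0.34), against 1 lower and 6 higher with the offset (median 0.19). Fbxw7 fell by 0.61, and by 0.42 with the offset, whereas Itch, which fell by 0.55, stood at 0.24 with it.

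**Figure D5:**
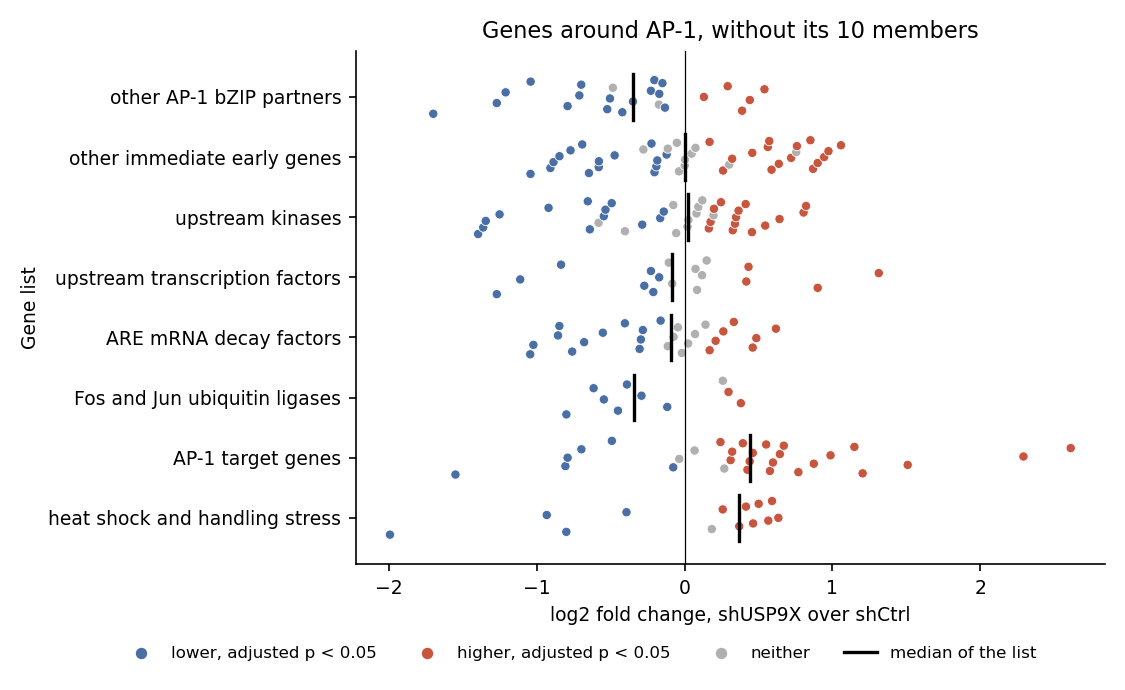
The log2 fold change (shUSP9X over shCtrl, TMM normalization) of each tested gene of 7 lists around AP-1 and of a list of heat shock genes, with the median of each list as a black bar and colours for the call at an adjusted p under 0.05. Without the GC and length offset the AP-1 target genes have the highest median, 0.44, and the bZIP partners the lowest, −0.35. Of the 29 AP-1 target genes 20 are higher, against 33.8% of all genes tested. The lists were chosen with earlier results of these data known. With the offset the decay factors have the highest median (0.34, beside 0.32 for the AP-1 targets), and the ubiquitin ligase, decay factor and transcription factor lists turn from more genes lower to more genes higher.

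Several other properties of the libraries differed between the groups along with Fos, Fosb, Egr1 and Fosl1, and their part in these results was not tested. Mitochondrially encoded genes made up 4.52% and 4.34% of each shCtrl library and 2.15% of each shUSP9X library. Heat shock and handling stress genes, which respond to cell harvest as immediate early genes can, summed to 12240 and 11850 CPM in shCtrl and 13100 and 13120 CPM in shUSP9X, with Hsp90ab1 the most abundant. Of 13 tested, 8 rose and 4 fell, where 33.8% of all genes rose and 33.6% fell, and with the offset 9 rose and 2 fell, where 4416 of all genes fitted rose and 2923 fell. Hsp90aa1 fell by 1.99 (SE 0.03), the largest fall among them, and Hsp90ab1 rose by 0.50 (SE 0.03).

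The cells were checked against markers of the tissue and of other cell types. Of 13 ovarian surface epithelium markers, 11 were above the floor in both shCtrl libraries and 9 in both shUSP9X libraries, at summed levels of 2527 and 2551 CPM in shCtrl and 2866 and 2808 CPM in shUSP9X. Of 10 tested, 4 rose and 4 fell, where 33.8% of all genes tested rose and 33.6% fell. With the offset 2 rose and 5 fell, where 4416 of all genes fitted rose and 2923 fell. Krt8 and Krt18 were among the rises, and Msln, Wt1 and Cdh2 among the falls. Krt19 was the most abundant, while Krt7 had at most 3 counts, Epcam at most 6 counts and Pax8 at most 9 counts in a library. Muc16 went from 33 and 43 counts to 1 and 0 counts in the knockdown libraries. Of 11 leukocyte markers, 2 were above the floor in both shCtrl libraries and 6 in both shUSP9X libraries, with sums of 10.3 and 9.93 CPM and of 25.4 and 25.0 CPM. Cd14 was the most abundant of them, and of 6 tested 5 rose and 0 fell, with and without the offset. Itgam had 0 counts in both shCtrl libraries and 72 and 75 counts in shUSP9X, Adgre1 had 58 and 59 and Ptprc 29 and 18 there after 0 in shCtrl, and Cd3e and C1qa were at 0 everywhere. Endothelial markers summed to 10.4 and 11.7 CPM in shCtrl and 6.48 and 7.0 CPM in shUSP9X, mostly Tek, with 2 of 6 above the floor and Cdh5, Emcn and Kdr at 0. Fibroblast markers summed to 255 and 262 CPM in shCtrl and 150 and 148 CPM in shUSP9X, mostly Dcn, with 5 of 9 above the floor and Pdgfrb, Thy1 and Lum at 0. Of 5 tested, 3 fell and 0 rose, with and without the offset. The falls were Pdgfra (log2 fold change −2.87), Col1a1 (−1.72) and Dcn (−0.46, and −0.18 with the offset). The part of these marker genes in the levels of Fos, Fosb, Egr1 and Fosl1 was not tested.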

How the data were processed

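Polyadenylated RNA of ID8 cells was sequenced. Per the methods, reads were mapped to GRCm38 (mm10) and analysed with StringTie v1.3.1 and DESeq2; the submitters' processing notes also name fastp 0.18.0, Bowtie2 2.2.8, HISAT2 and RSEM. For each gene the authors deposited estimated counts by library, not normalized, of which 6.395% to 6.69% per library were not whole, and FPKM values made by the authors. The strand of the reads is not stated, so it is not known how reads in bases shared by genes on opposite strands were assigned.

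The test was planned for whole-number counts, so estimated counts were rounded. Counts were filtered with filterByExpr, scaled by TMM and fitted in edgeR 4.0.16 under R 4.3.3 (quasi-likelihood test, group alone, 11448 genes), with Benjamini-Hochberg adjustment. The common biological coefficient of variation was 0.0352. A count of 3 (0.152 to 0.190 CPM) was taken as the floor of detection, and this floor covers counting error only, while SDs and SEs hold the spread between libraries. Replicates of a group differed by more than sampling noise (chi-square per gene 3.35 in shCtrl and 2.23 in shUSP9X).

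The 10 genes and the lists were chosen with earlier results of these data known. Named genes were the 10, Usp9x, a preset group of regulators (Srf, Elk1, Elk3, Elk4, Mapk3, Mapk8, Mapk9, Zfp36, Dusp1, Myc, Fbxw7 and Itch), up to 4 rises and 4 falls per list (adjusted p under 0.05, no overlap, mean log2 CPM of at least 1), and the 3 genes nearest in pattern to the member with the largest log2 fold change (Fosb in this fit). Some genes that this rule names are not reported here. Gene positions, exons, GC content and transcript length came from GENCODE M21 (longest coding transcript, 21973 of 22063 identifiers matched), and promoter sequences from RefSeq (GRCm38.p6). The offset removes each library's loess trend on GC content and length. Alternatives were DESeq2 1.42.0, other scalings and filters, a replicate block, limma 3.58.1 on log2 FPKM, and leaving out each library. The code was tested on simulated data.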

Additional observations from a re-analysis of the deposited data

How the results depend on the processing

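With 2 libraries per group the spread rests on 2 degrees of freedom, no permutation test can pass 0.05, and library and treatment batches are not labelled. Fosb rests on 13 and 11 counts in shUSP9X and Fos on 29 and 34, so their fold changes are less precise than that of Fosl1. Over all alternatives, the log2 fold change lay between −4.86 and −3.57 for Fos, −4.90 and −2.28 for Fosb, −1.67 and −1.43 for Egr1 and 1.76 and 2.10 for Fosl1, and each of these kept its direction. The lowest sizes for Fos and Fosb came from log2(FPKM + 1), where the added constant exceeds their FPKM in shUSP9X. For Jun the sign turned, from 0.03 to −0.13 with the GC and length offset.

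The cutoff in the study's methods (fold change over 1.5, p under 0.05 without adjustment) left 2143 lower and 1233 higher genes, and of those of the 7 lists 35 were lower and 26 higher. With the GC content and length offset 42 list genes were lower, and 42 with a replicate block besides. Leaving out each library gave 3318 to 3652 genes lower and 3423 to 3869 higher, and 61 to 69 list genes lower and 61 to 71 higher. The other alternatives gave 2923 to 4031 genes lower, 3190 to 4466 higher, 42 to 74 list genes lower and 61 to 91 higher. The replicate numbers of the labels are shared by the groups, but the deviations of same-numbered libraries did not go together (correlation −0.045), and the fit with a replicate block called 3810 genes lower, 3855 higher, 74 list genes lower and 67 higher.

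The GC and length offset turned the direction of 16 named genes besides Jun, here with their log2 fold change under the offset and under the replicate block with the offset: Braf 0.0066 and 0.0043, Cnot6l 0.94 and 0.94, Creb1 0.22 and 0.22, Dnaja1 0.57 and 0.57, Dnajb4 0.0046 and 0.0084, Itch 0.24 and 0.24, Krt19 −0.15 and −0.15, Map3k2 0.42 and 0.42, Mapk3 −0.16 and −0.16, Mapk8 0.64 and 0.64, Mapk9 0.00080 and 0.0016, Mrtfb 0.18 and 0.18, Rc3h2 0.84 and 0.84, Tiparp 0.041 and 0.041, Ubr1 0.42 and 0.42, and Xrn1 0.46 and 0.46. By construction the offset removes differences that follow composition and length, and whether those are technical was not tested.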
